A study of Oryza sativa Japonica Group with 3 samples.

Results

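The 6 genes of the ethylene signalling pathway were examined in rice root tips: the receptor genes ERS1 (OS03G0701700), ERS2 (OS05G0155200), ETR2 (OS04G0169100) and ETR3 (OS02G0820900), the signal transducer gene EIN2 (OS07G0155600) and the transcription factor gene EIL1 (OS03G0324200). They were picked out by identifier, and all 6 of 6 were found among the 35664 genes listed. Each was compared between RNA of isolated nuclei and poly(A) RNA, to see how much of each transcript either pool holds. Both pools came from the terminal 1 cm of roots of seedlings aged 7 days, cultivar Nipponbare. The nuclear pool came from the line p35S:OsNTF2, which carries a nuclear tag, on Murashige and Skoog medium of strength 0.5, with tagged nuclei captured on streptavidin beads, and the series' design text says that ribosomal RNA was degraded. The poly(A) pool came from the line p35S:HF-FLAG-OsRPL18, which carries a tagged ribosomal protein, on medium of strength 1, by capture on oligo(dT). The design text gives strength 1 for all samples. In both lines the 35S promoter, which is active in most plant cells, drives the transgene, so RNA pool, plant line, RNA selection and medium differ together and cannot be told apart. The design text states 4 biological replicates per pool; GEO holds 1 record per pool, and every p-value below rests on that statement.

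Ethylene is a gaseous plant hormone that is made from 1-aminocyclopropane-1-carboxylate (ACC) and perceived by receptors in the membrane of the endoplasmic reticulum. Without ethylene the receptors keep the kinase CTR1 active, and CTR1 holds back EIN2. When ethylene binds, part of EIN2 reaches the nucleus and transcription factors of the EIN3 and EIL family accumulate and switch on response genes. Subfamily I receptors, here ERS1 and ERS2, have a conserved histidine kinase domain, whereas in subfamily II receptors, here ETR2 and ETR3, that domain has diverged. In rice roots the hormone restrains elongation, and EIN2 and EIL1 are needed for that response.

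The receptor genes split by subfamily, with 2 genes in each, and a link to subfamily was not tested. Both subfamily I genes were lower in nuclear RNA than in poly(A) RNA, by 1.91-fold for ERS1 and 1.89-fold for ERS2, and both subfamily II genes were higher, by 2.65-fold for ETR2 and 4.90-fold for ETR3. EIL1 was higher in nuclear RNA by 1.49-fold, and EIN2 did not pass the test. Levels are RPKM, that is, reads divided by gene length in kilobases and by library depth, as deposited, and fold changes and differences are on the log2(RPKM + 1) scale, nuclear minus poly(A), which understates changes of low genes. Tests are limma fits across 26928 genes with a mean of at least 1 RPKM in either pool, called at an adjusted p under 0.05. All 6 genes passed that filter, and 5 were called, 3 higher and 2 lower in nuclear RNA. Over all tested genes 63.0% were called, 33.1% higher and 30.0% lower, so that a call as such does not set these genes apart. For the same 5 genes the nuclear range lay outside the poly(A) range, as it did for 61.1% of tested genes (31.7% higher and 29.4% lower in nuclear RNA).

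**Figure D1:**
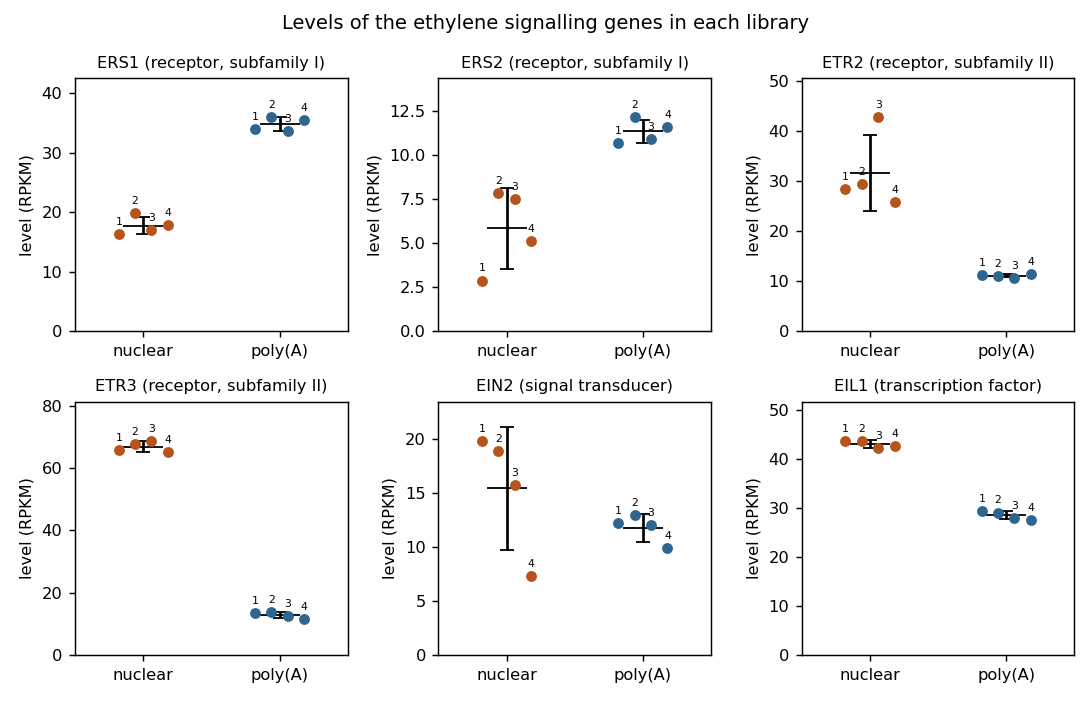
Level of each gene (RPKM, y axes starting at 0) in the 4 nuclear and the 4 poly(A) libraries; points are libraries with their replicate number, bars are the mean and SD. ERS1 and ERS2 lie lower in nuclear libraries, ETR2, ETR3 and EIL1 lie higher, and EIN2 overlaps because nuclear replicate 4 is at 7.28 RPKM.

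Depth, recovered from the steps of the RPKM values, was 1073588 to 2290266 reads in nuclear libraries and 19430866 to 29974177 reads in poly(A) libraries. For a gene of 1 kb, a step of 1 read equalled 0.436 to 0.93 RPKM in the nuclear pool and 0.033 to 0.051 RPKM in the poly(A) pool. Pearson's r of log2 values across tested genes was 0.854 to 0.891 between nuclear libraries and 0.991 to 0.995 between poly(A) libraries. The root label was checked on 5 marker genes, whose summed level was 195.3 to 298.1 RPKM in nuclear libraries and 270.6 to 341.8 RPKM in poly(A) libraries. SHR1 and SCR1, which act in root patterning, and LSI1 and LSI2, which transport silicon, were above 0 in every library. QHB, a gene of the quiescent centre, had 0 to 3.87 RPKM in nuclear libraries, with 0 in 2 of them, and 1.61 to 2.62 RPKM in poly(A) libraries. SHR1 and SCR1 were higher in nuclear RNA (differences 2.11 and 1.93) and LSI1 was lower (−1.63), so root markers moved between the pools as well. The shoot meristem gene OSH1 was at 0 in all libraries. The 3 leaf genes summed to 6.89 to 16.9 RPKM in nuclear libraries and 4.31 to 7.44 RPKM in poly(A) libraries. Of these, RBCS was at 0 in every nuclear library and at most 0.177 RPKM in poly(A) libraries. CAB2R was called higher in nuclear RNA (difference 0.73, limma adjusted p = 0.0476), although its pools overlapped. CAB1R did not pass (difference 0.61, limma adjusted p = 0.0936). The part of other cell types in the results was not tested. In bulk RNA, fewer cells of a type and less RNA per cell cannot be told apart.

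ERS1 was the most abundant of the 6 transcripts in poly(A) RNA. Its level in nuclear libraries was 16.4, 19.8, 16.9 and 17.9 RPKM (replicates 1 to 4), from 54, 106, 52 and 45 reads. In poly(A) libraries it was 33.9, 36.0, 33.6 and 35.5 RPKM, from 1635 to 2385 reads. Every nuclear library lay below every poly(A) library, with means of 17.8 ± 1.50 RPKM in the nuclear pool and 34.7 ± 1.16 RPKM in poly(A) RNA (SD, n = 4 each). The difference was −0.93 ± 0.12 on the log2 scale (SE; limma adjusted p = 0.000164, 95% interval −1.20 to −0.66).

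ERS2, the second subfamily I receptor, was the lowest of the 6 in nuclear RNA. Its nuclear libraries were at 2.87, 7.83, 7.49 and 5.12 RPKM, from 14, 62, 34 and 19 reads, and its poly(A) libraries at 10.7, 12.1, 10.9 and 11.6 RPKM. The pools did not overlap, but nuclear replicate 1 stood lowest, at 2.87 RPKM with a 95% counting interval of 1.57 to 4.82 RPKM. Means were 5.83 ± 2.31 RPKM in the nuclear pool and 11.3 ± 0.679 RPKM in poly(A) RNA (SD, n = 4 each), a difference of −0.92 ± 0.26 (SE; limma adjusted p = 0.0129). With RPKM rescaled to an equal sum without the 100 highest genes the difference was −0.66 and the limma adjusted p was 0.0551. The estimated differences of ERS1 and ERS2 between the pools were close: the log2 ratio of ERS1 to ERS2, taken within each library from log2(RPKM + 1), was 1.53 ± 0.48 in nuclear libraries and 1.54 ± 0.04 in poly(A) libraries (SD, n = 4 each; exact permutation p = 1, two-sided). The nuclear SD of 0.48 is wide, so the test does not show that the differences were equal. With the trend on gene length given below taken off, the differences were −1.11 for ERS1 and −1.44 for ERS2.

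ETR2, a subfamily II receptor, had 28.4, 29.4, 42.8 and 25.9 RPKM in nuclear libraries, from 147, 247, 206 and 102 reads. In poly(A) libraries it had 11.2, 11.04, 10.7 and 11.4 RPKM. All nuclear libraries were higher, and nuclear replicate 3 stood above the others. Means were 31.6 ± 7.59 RPKM in the nuclear pool and 11.1 ± 0.321 RPKM in poly(A) RNA (SD, n = 4 each), a difference of 1.41 ± 0.17 (SE; limma adjusted p = 0.000122, 95% interval 1.02 to 1.79). The coefficient of variation over nuclear libraries was 24.0%, where counting error alone gives 7.99%.

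ETR3, the other subfamily II receptor, was the most abundant of the 6 in nuclear RNA. Its nuclear libraries were at 65.8, 67.7, 68.9 and 65.1 RPKM, from 232 to 515 reads, and its poly(A) libraries at 13.6, 13.7, 12.6 and 11.6 RPKM. The groups were far apart, with means of 66.9 ± 1.73 RPKM in the nuclear pool and 12.9 ± 0.957 RPKM in poly(A) RNA (SD, n = 4 each). The difference of 2.29 ± 0.12 (SE; limma adjusted p = 1.52e-06, 95% interval 2.03 to 2.56) exceeded that of 95.5% of tested genes. The nuclear coefficient of variation, 2.59%, was smaller than the 5.66% that counting error gives, so the nuclear SD understates the error of this gene; limma draws the spread of single genes towards that of all genes.

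The receptor genes were also compared with each other within each library, by the same log2 ratio. The added 1 draws the ratios towards 0, most for the low gene ERS2. The log2 ratio of ERS1 to ETR3 was −1.86 ± 0.11 in nuclear libraries and 1.37 ± 0.11 in poly(A) libraries, and that of ERS1 to ETR2 was −0.78 ± 0.36 in nuclear libraries and 1.57 ± 0.04 in poly(A) libraries (SD, n = 4 each). For ERS2 and ETR3 it was −3.39 ± 0.52 in nuclear libraries and −0.17 ± 0.13 in poly(A) libraries. The order of ERS1 and both ETR genes was thus opposite in the pools in all 8 libraries. ETR2 and ETR3 differed from each other as well: their log2 ratio was −1.08 ± 0.28 in nuclear libraries and −0.20 ± 0.12 in poly(A) libraries, a larger rise for ETR3. Of the 15 pairs among the 6 genes, 13 had unequal differences (exact permutation p = 0.0286, the smallest that 4 against 4 libraries can give; 0.0330 after Benjamini-Hochberg adjustment over the 15 pairs). The pairs that did not pass were ERS1 with ERS2 and EIN2 with EIL1 (exact permutation p = 0.571, adjusted 0.612). A ratio within a library does not remove the trend on gene length given below. On the log2 scale that trend was 0.18 for ERS1 and 0.80 for EIN2. The count of 13 pairs was not repeated with the trend taken off, and the share of such pairs among other tested genes was not computed. As 63.0% of all tested genes were called, in both directions, the count alone does not set these genes apart.

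As a share of the summed RPKM of the 4 receptor genes, subfamily I made up 17.0, 22.1, 18.0 and 20.2% in nuclear libraries and 64.3, 66.0, 65.7 and 67.1% in poly(A) libraries. ETR3 alone took 55.0 ± 3.32% of the receptor sum in nuclear RNA and 18.4 ± 1.26% in poly(A) RNA (SD, n = 4 each). ERS1 took 14.6 ± 1.58% in nuclear RNA and 49.6 ± 0.705% in poly(A) RNA. The sum itself was 122.1 ± 10.7 RPKM in the nuclear pool and 70.0 ± 2.15 RPKM in poly(A) RNA. A further receptor gene of the table, ETR4 (OS07G0259100, subfamily II), was at 0 in all libraries.

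**Figure D2:**
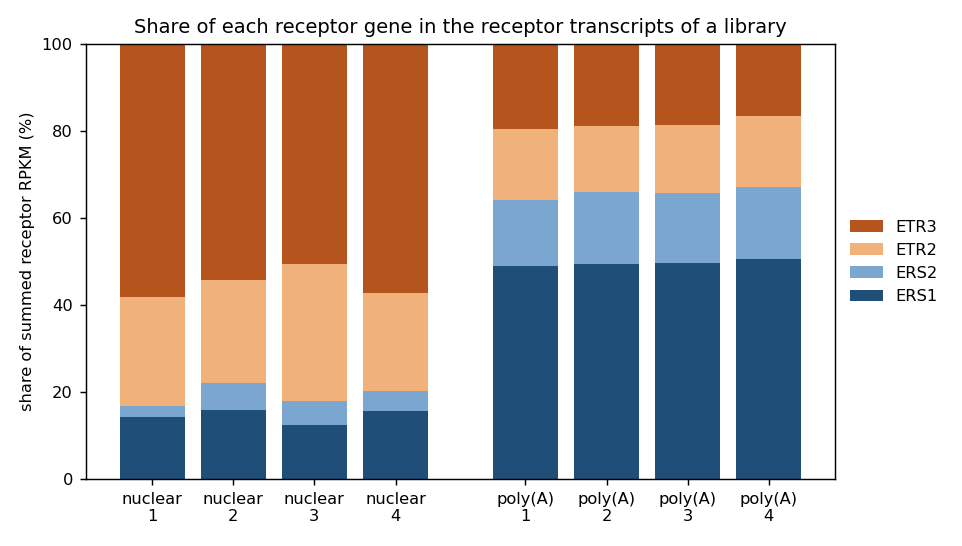
Share of ERS1, ERS2, ETR2 and ETR3 in the summed RPKM of the 4 receptor genes (y axis, %), with 1 bar per library, nuclear on the left and poly(A) on the right. ETR3 averages 55.0% of the sum in nuclear libraries, and ERS1 averages 49.6% in poly(A) libraries.

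EIN2, a membrane protein related to Nramp metal transporters that carries the signal from the receptors to the nucleus, did not pass the test. It had 19.9, 18.9, 15.7 and 7.28 RPKM in nuclear libraries, from 129, 199, 95 and 36 reads, and 12.2, 12.9, 12.0 and 9.94 RPKM in poly(A) libraries. Replicates 1 to 3 of the nuclear pool lay above every poly(A) library and nuclear replicate 4 lay below every one. The value of nuclear replicate 4 had a 95% counting interval of 5.10 to 10.1 RPKM, below the 12.7 to 19.2 RPKM of nuclear replicate 3. Means were 15.4 ± 5.72 RPKM in the nuclear pool and 11.8 ± 1.29 RPKM in poly(A) RNA (SD, n = 4 each), a difference of 0.28 ± 0.29 (SE; limma adjusted p = 0.415, 95% interval −0.38 to 0.94). Without nuclear replicate 4 the difference was 0.58 and passed (limma adjusted p = 0.00702), so this library decides the call.

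The table lists 3 further genes as similar to EIN2, and reads of near-identical copies may be divided among them. OS07G0156732 and OS07G0157401, both of 2244 nt, had 8.16 ± 2.56 and 8.60 ± 3.19 RPKM in nuclear RNA, and 10.1 ± 1.25 and 9.15 ± 0.942 RPKM in poly(A) RNA. Neither passed the test (limma adjusted p = 0.231 and 0.639), but OS07G0156732 passed as lower with voom (−0.59, limma adjusted p = 0.0413). OS03G0700800 had 10.9 ± 5.07 RPKM in the nuclear pool and 4.74 ± 0.678 RPKM in poly(A) RNA and was higher in nuclear RNA (difference 0.97, limma adjusted p = 0.0140). With the reads of EIN2 and the 3 others summed over their summed length, an alternative added after the data were seen, the level was 11.6, 13.6, 14.5 and 6.55 RPKM in nuclear libraries and 8.66, 9.51, 8.66 and 7.28 RPKM in poly(A) libraries. Nuclear replicate 4 was again the lowest, and the summed difference of 0.35 did not pass (exact permutation p = 0.2).

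EIL1, the rice counterpart of the EIN3 transcription factor of Arabidopsis, was higher in nuclear RNA by a small and even margin. It had 43.6, 43.7, 42.2 and 42.6 RPKM in nuclear libraries, from 187 to 409 reads, and 29.3, 29.1, 28.0 and 27.6 RPKM in poly(A) libraries. The groups did not overlap, with means of 43.0 ± 0.751 RPKM in the nuclear pool and 28.5 ± 0.823 RPKM in poly(A) RNA (SD, n = 4 each). The difference was 0.58 ± 0.11 (SE; limma adjusted p = 0.00158, 95% interval 0.33 to 0.83). The nuclear coefficient of variation of 1.75% was below the 6.36% that counting error gives. The next gene of the table, OS03G0324300, is annotated as similar to an ETHYLENE-INSENSITIVE3-like 1 protein. RefSeq lists 2 neighbouring genes under the name EIL1, but no identifier of this table, for any gene, could be paired with RefSeq. Over all libraries OS03G0324300 had 1051 nuclear and 12414 poly(A) reads, close to the 1073 and 12401 of EIL1. Whether reads were divided between the 2 genes was not tested, so their values may not be independent. OS03G0324300 had 34.6, 37.7, 40.1 and 32.8 RPKM in nuclear libraries and 24.9, 25.3, 24.9 and 23.7 RPKM in poly(A) libraries, and was also higher (0.53 ± 0.12, SE; limma adjusted p = 0.00437). Summed over both genes the level was 39.4 ± 1.68 RPKM in the nuclear pool and 26.5 ± 0.734 RPKM in poly(A) RNA (SD, n = 4 each; difference 0.56, exact permutation p = 0.0286).

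**Figure D3:**
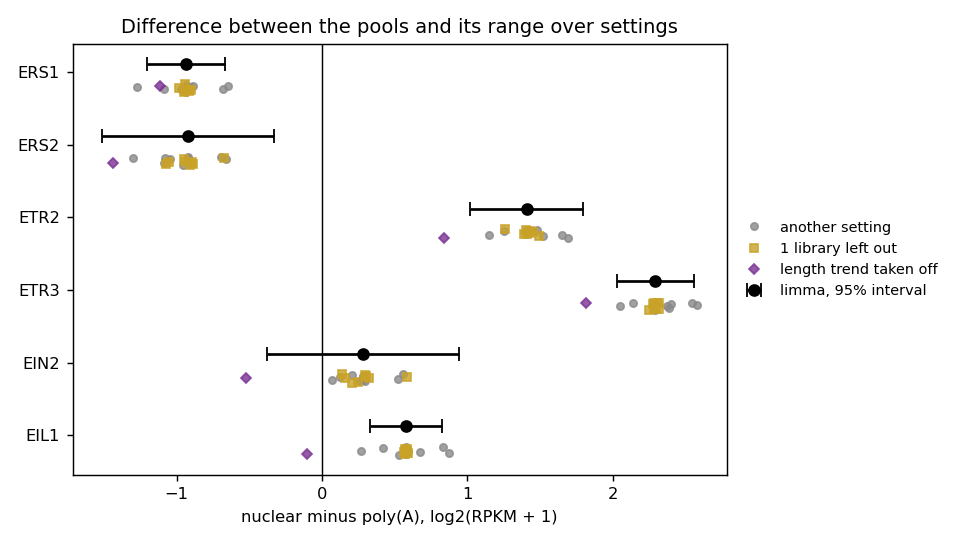
Difference between nuclear and poly(A) RNA (x axis, log2 scale) of each gene with its 95% limma interval in black, and below it the value with 1 library left out (squares), under other settings (circles) and with the trend on gene length taken off (diamonds). ERS1, ERS2, ETR2 and ETR3 keep their direction throughout, and EIN2 and EIL1 cross 0 with the length trend taken off.

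Gene length moved with the difference between the pools. The median difference was −0.31 over tested genes under 1000 nt, 0.20 for those of 2000 to under 3000 nt, 0.50 from 3000 nt and 0.79 from 4000 nt. ERS1 was 2336 nt long as the counter took it, ETR3 3314 nt, ERS2 3452 nt, ETR2 3663 nt, EIL1 4078 nt and EIN2 4598 nt, longer than 79.0 to 98.6% of tested genes. With the trend on length taken off, ERS1 and ERS2 were lower by more (−1.11 and −1.44) and ETR2 and ETR3 were higher by less (0.84 and 1.82), all 4 with the call kept. EIL1 was then at −0.10 (limma adjusted p = 0.443) and EIN2 at −0.52 (limma adjusted p = 0.146). OS03G0324300 and OS03G0700800 lost the call in the same way (−0.29 and 0.03). Relative to genes of like length, the 4 receptor genes thus still differed between the pools and no difference of EIL1 was detectable.

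Differences are relative to other genes, whose median was 0.08. This median was 0.29 with RPKM rescaled to an equal sum per library, 0.32 with that sum taken without the 100 highest genes, −0.08 with median centring and −0.20 in a voom fit of the recovered reads. Of the called genes, 52.5% were higher in nuclear RNA, or 62.6% after rescaling without the 100 highest genes. ERS1 and ERS2 were lower, and ETR2, ETR3 and EIL1 higher, under each of these scalings; the difference of EIL1 was 0.27 with voom, against 0.58 as deposited.

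**Figure D4:**
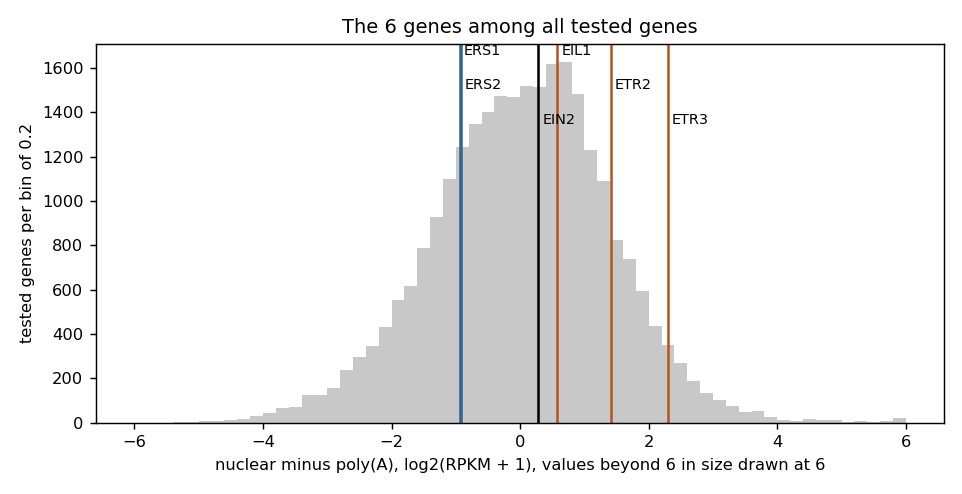
Number of tested genes per bin of the difference between nuclear and poly(A) RNA (x axis, log2 scale), with vertical lines at the 6 genes (blue lower, orange higher, black not past the test). ETR3 lies above 95.5% of tested genes and ETR2 above 85.5%, whereas ERS1 and ERS2 coincide near −0.93, above 23.6% and 23.8%.

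The order of the levels differed between the pools. In nuclear RNA it was ETR3, EIL1, ETR2, ERS1, EIN2 and ERS2. There the ranges of EIL1 and ETR2, of ERS1 and EIN2, and of EIN2 and ERS2 overlapped, although EIN2 lay above ERS2 within each of the 4 libraries. In poly(A) RNA the order was ERS1, EIL1, ETR3, EIN2, ERS2 and ETR2. By their ranges, ERS1 and EIL1 stood apart there, from each other and from the rest; the other 4 lay between 9.94 and 13.7 RPKM, and each range overlapped that of its neighbour in the order, although ETR3 lay above EIN2 within each of the 4 libraries. These 4 spread to 2.87 to 68.9 RPKM in nuclear RNA.

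The genes most like each member were taken from 3381 tested genes with a symbol, as the smallest root mean square difference of log2(RPKM + 1) over the 8 libraries. EIL1 was closest to CSLD1, a cellulose synthase-like gene of root hairs (0.102), and to HK4, a cytokinin receptor histidine kinase gene (0.105). CSLD1 had 41.2 ± 2.09 RPKM in the nuclear pool and 28.9 ± 2.26 RPKM in poly(A) RNA. ETR2 was closest to CSLD2 (0.106), at 31.4 ± 5.05 RPKM in the nuclear pool and 11.1 ± 0.561 RPKM in poly(A) RNA, and to EP2 (0.123). ETR3 was closest to the transcription factor genes WRKY25 (0.159) and ERF54 (0.172). ERS1 was near UAH (0.167), and ERS2 was closest to RF2 (0.160) and SPL1 (0.179). EIN2 was closest to FTSH7 (0.162), at 16.7 ± 5.62 RPKM in the nuclear pool and 11.4 ± 0.267 RPKM in poly(A) RNA, and to S7 (0.258). These values describe levels only.

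The rest of the pathway was taken from the table's annotation as 29 further genes, 24 of them tested. Of these, 10 were higher and 3 lower in nuclear RNA, with a median of 0.47 against 0.08 over all tested genes. Shares of 33.1% higher and 30.0% lower held over all tested genes. With the trend on length taken off, 7 of the 24 were higher and 4 lower. In that setting 8377 of all 26928 tested genes were higher and 8276 lower.

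Downstream, 3 of 5 EIN3-like genes were tested and all 3 were higher, against 33.1% of all tested genes. Among them OS03G0324300, given above beside EIL1, lost the call with the length trend taken off (−0.29, limma adjusted p = 0.0592). EIL2 (OS07G0685700) had 76.1, 66.5, 73.0 and 114.0 RPKM in nuclear libraries and 30.4, 27.4, 25.9 and 26.8 RPKM in poly(A) libraries (difference 1.51 ± 0.18, SE; limma adjusted p = 0.000127). EIL3 (OS09G0490200) had 59.7, 51.9, 63.5 and 59.6 RPKM in nuclear libraries and 15.1, 16.4, 15.5 and 15.2 RPKM in poly(A) libraries (1.85 ± 0.12, SE; limma adjusted p = 4.24e-06). Neither gene's pools overlapped. EIL4 (OS08G0508700) was below the filter, with 7 nuclear and 242 poly(A) reads, and OS02G0574800 was at 0 throughout.

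Of 3 genes annotated as similar to CTR1, the kinase under the receptors, 2 were higher, against 33.1% of all tested genes. OS02G0527600 averaged 31.5 ± 2.76 RPKM in the nuclear pool and 10.8 ± 0.437 RPKM in poly(A) RNA (SD, n = 4 each; limma adjusted p = 1.35e-05), close to the values of ETR2. OS09G0566550 averaged 13.8 ± 3.52 RPKM in the nuclear pool and 8.35 ± 0.246 RPKM in poly(A) RNA (limma adjusted p = 0.0133); its difference of 0.64 was 0.29 with the length trend taken off, 0.35 with voom and 0.49 with poly(A) reads thinned to the nuclear depth, with the call lost each time. OS08G0103000 averaged 2.89 ± 1.15 RPKM in the nuclear pool and 4.36 ± 0.644 RPKM in poly(A) RNA and did not pass (limma adjusted p = 0.0656), but passed as lower without nuclear replicate 3 (−0.68, limma adjusted p = 0.00451) and under 4 other alternatives.

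Genes for the enzymes of ethylene synthesis were called in both directions, as were tested genes in general (33.1% higher and 30.0% lower). Of 6 tested genes for ACC synthase, which makes the precursor, 2 were higher and 1 lower. SSG6 (OS06G0130400), named ACC synthase 6, had 12.8 ± 1.43 RPKM in the nuclear pool and 7.43 ± 0.568 RPKM in poly(A) RNA, and ACS1 (OS03G0727600) had 3.07 ± 1.24 RPKM in nuclear libraries and 1.24 ± 0.243 RPKM in poly(A) libraries (limma adjusted p = 0.00149 and 0.0175). ACS1 had 38 nuclear reads in all, and its pools overlapped (lowest nuclear library 1.44 RPKM, highest poly(A) library 1.56 RPKM). OS09G0453800 of the ACC synthase family fell to 9.02 ± 4.73 RPKM in nuclear RNA, against 37.5 ± 2.09 RPKM in poly(A) RNA (limma adjusted p = 0.000337). ACS5 (OS01G0192900), at 25.2 ± 6.59 RPKM in the nuclear pool and 19.1 ± 0.575 RPKM in poly(A) RNA, did not pass (limma adjusted p = 0.129) and passed with an equal sum per library (0.60). ACS3 (OS05G0196600) passed without nuclear replicate 3 only, and ACS2 (OS04G0578000) passed after rescaling, without nuclear replicate 1 or without poly(A) replicate 4.

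Of 7 tested genes for ACC oxidase, which releases ethylene from ACC, 2 were lower and none was higher by limma, at an unadjusted p under 0.05 as well. Shares over all tested genes were 30.0% lower and 33.1% higher, so 2 of 7 lower is near the general share. ACO4 (OS11G0186900) fell to 8.23 ± 2.70 RPKM in nuclear RNA, against 45.8 ± 10.8 RPKM in poly(A) RNA (SD, n = 4 each; difference −2.36 ± 0.24, SE, limma adjusted p = 4.9e-05). OS06G0573900, of 651 nt, had 1 nuclear read and 790 poly(A) reads. By reads summed over each pool and scaled by depth, its nuclear level was 0.0222 times the poly(A) level (counting interval 0.000561 to 0.124). On the log2(RPKM + 1) scale used for the calls, the fold was 0.0994 (limma adjusted p = 1.61e-05). ACO1, ACO5, ACO7 and OS05G0149300 did not pass and averaged 1.06 to 4.89 RPKM in the nuclear pool and 0.881 to 3.25 RPKM in poly(A) RNA.

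OS02G0200900 and OS06G0605900 were listed by identifier alone, without an annotation in the table that ties them to ethylene, and had the largest positive differences among the 24 tested genes of the list. The first, annotated as a hypothetical conserved gene, had 860.2, 822.9, 934.8 and 900.3 RPKM in nuclear libraries and 57.4, 62.5, 58.1 and 55.7 RPKM in poly(A) libraries, or 14.8-fold more in nuclear RNA (limma adjusted p = 1.58e-07). The other, annotated as a leucine-rich repeat protein of the cysteine-containing subtype, had 110.3, 120.8, 147.9 and 96.6 RPKM in nuclear libraries and 12.0, 10.99, 10.2 and 10.5 RPKM in poly(A) libraries, or 9.94-fold more (limma adjusted p = 1.19e-06). Without both genes the list had 8 higher and 3 lower of 22.

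**Figure D5:**
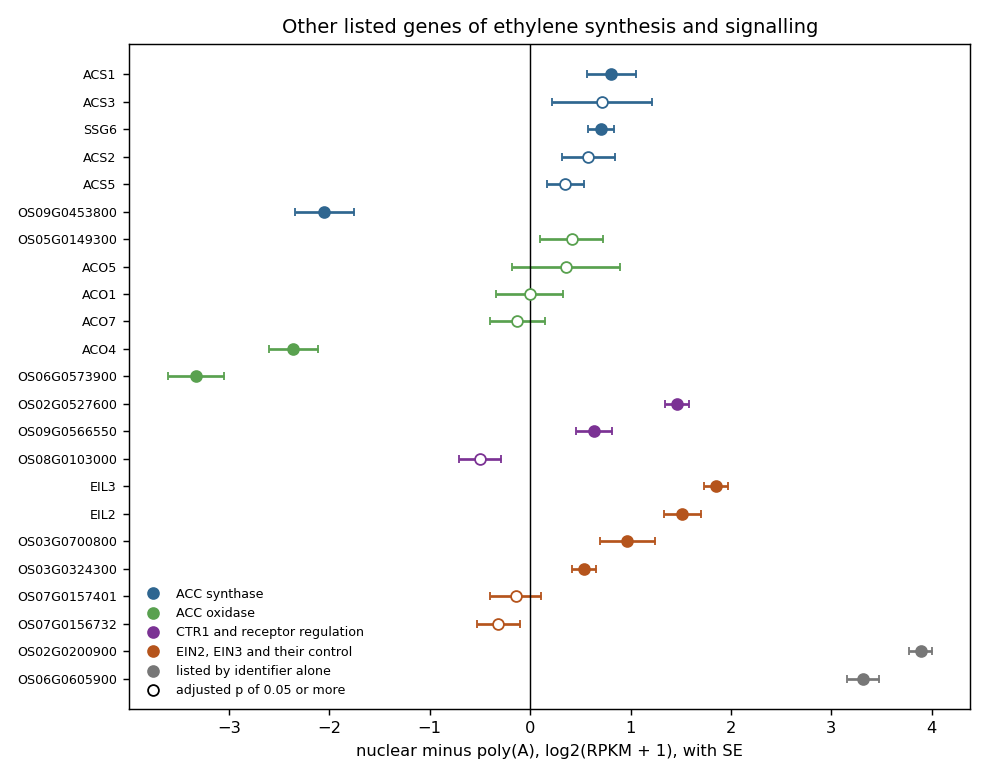
Difference between nuclear and poly(A) RNA (x axis, log2 scale, with SE) of 23 of the tested genes listed beside the 6, coloured by role; open points did not pass an adjusted p of 0.05. Genes for CTR1-like kinases run from −0.50 to 1.46 and those for EIN3-like factors from 0.53 to 1.85. ACO4 and OS06G0573900 are the lowest, and the grey points are the 2 genes listed by identifier alone.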

How the data were processed

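RNA sequencing libraries of nuclear RNA and poly(A) RNA from rice root tips were compared, 4 of each. The genome build IRGSP-1.0 and the tools TopHat2 2.1.1, FastQC and CASAVA 1.8 are named, per the submitters' processing notes. For the read counter, strandedness and gene annotation, the entry is: not given in the sources used here. Thus reads of overlapping or antisense genes cannot be told apart. The values are RPKM per gene and library, computed and deposited by the authors. Of 35694 lines, 29 identifiers were repeated, with equal values, and entered each fit 1 time. Whole reads came out for all 33191 genes above 0 (within 0.0001 of a read or 3e-08 of the count), and 99.96% of gene lengths were within 0.02 nt of a whole number.

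Pools were compared with limma 3.58.1 in R 4.3.3 on log2(RPKM + 1), two-sided, with Benjamini-Hochberg adjustment over all tested genes. Ratios of members within a library were tested with exact permutation tests. The fit and the read recovery were tested on simulated data. The simulation of the fit changed few genes and held no trend on length, unlike these data, and so does not cover them. Counting intervals are exact at 95% and cover counting error only. The members and lists were chosen with earlier results of these data known. Pathway genes were matched by words and identifiers; 3 of 38 matches were removed as unrelated by name. All members, all tested pathway genes and the 2 genes nearest in level to each member may be named. Same-numbered libraries of the pools did not deviate together, so the numbers were not used as pairs. The shoot base sample was not analysed here, and the values of 1 tested pathway gene and of 1 gene near a member in level are not reported here.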

Additional observations from a re-analysis of the deposited data

Results flagged for a closer look

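None of the 6 genes had a library past Dixon's 95% critical value for 4 libraries in either pool. Of 58 groups of 4 libraries examined, over these genes and the tested genes of the list drawn in the pathway plot, 3 had one library farther from the rest than that, where chance gives about 1 in 20. OS03G0700800, similar to EIN2, had 3.72 RPKM in poly(A) replicate 4 and 5.02 to 5.12 RPKM in the other poly(A) libraries, a gap of 0.930 of the range. SSG6 (OS06G0130400) had 6.58 RPKM in poly(A) replicate 4 and 7.68 to 7.77 RPKM in the others, a gap of 0.923. OS06G0573900 had its single nuclear read in replicate 1, a gap of 1.00 that rests on 1 read.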

How the results depend on the processing

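Over 19 alternatives each, ERS1 (−1.27 to −0.65), ETR2 (0.84 to 1.69) and ETR3 (1.82 to 2.58) kept direction and call. ERS2 (−1.44 to −0.66) lost the call once, at −0.658 with an equal sum without the 100 highest genes. With the length trend taken off, EIN2 turned to −0.521 and EIL1 to −0.10, neither past the test. Leaving out 1 library gave −0.98 to −0.90 for ERS1, −1.07 to −0.67 for ERS2, 1.26 to 1.49 for ETR2, 2.25 to 2.32 for ETR3, 0.14 to 0.58 for EIN2 and 0.56 to 0.59 for EIL1; only EIN2 without nuclear replicate 4 (0.583) changed its call. The replicate block gave EIN2 0.28 (limma adjusted p = 0.321) and EIL1 0.58 (limma adjusted p = 0.0197) and changed no call of the 6; deviations of same-numbered libraries correlated at −0.048 to 0.009. Under it 16019 genes were called, against 16978. The pathway genes called lower numbered 5 with voom, against 3; other counts stayed within 1.5 times. With 1 library left out, the exact test of a pair cannot go below 0.0571 and was not repeated. Nor was it repeated with the length trend taken off. A quasi-likelihood count model on recovered reads was not run. Nuclear depth, 17.5 times lower on average, limits genes such as ERS2 and most synthesis genes.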
